A study of Mus musculus with 26 samples.

Results

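The 7 genes that encode the subunits of the NMDA-type glutamate receptor (Grin1, Grin2a, Grin2b, Grin2c, Grin2d, Grin3a and Grin3b) were followed across ATAC-seq peak lists of mouse medium spiny neurons (MSNs). A peak belonged to a member when the authors' own annotation gave that gene as its name, and 296 of 399461 peaks in 8 lists did so. Of 21887 protein-coding genes in the RefSeq table, the 7 members make up 0.111% of the summed gene length. The members are the complete gene family by name, and the rule uses no measured value.

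ATAC-seq marks DNA that is accessible to a transposase, and a peak is a stretch where insertions exceed the local background. The nuclei came from MSNs of mice, the projection neurons of the striatum, of the D1 kind (expressing the dopamine receptor gene Drd1) and the D2 kind (expressing Drd2), in 4 states. SS stands for baseline, SC for acute cocaine, CS for chronic cocaine with prolonged withdrawal and CC for relapse to cocaine. The 26 libraries are spread unevenly: among D1 there are 2 for SS and 4 each for SC, CS and CC, and among D2 there are 2 for SS, 8 for CS and a single 1 each for SC and CC. Brain is the tissue named in the labels, and the series title names the nucleus accumbens. Strain, age, sex, cocaine dose, transgenes and the way in which D1 and D2 nuclei were told apart are not given in the sources used here. Peaks were deposited as 1 list per group, which leaves every value without a replicate error and makes a test between groups impossible. In such lists, fewer nuclei with an open site and less open DNA in each nucleus cannot be told apart.

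NMDA receptors are cation channels that open when glutamate and a co-agonist, glycine or D-serine, are bound while the membrane is depolarised, and they let calcium into the neuron. Each receptor is a tetramer that contains GluN1, the product of Grin1, together with GluN2 subunits (Grin2a to Grin2d), GluN3 subunits (Grin3a and Grin3b) or both. GluN2A and GluN2B are the main GluN2 subunits of forebrain projection neurons, GluN2C is best known from cerebellar granule cells, and GluN2D from interneurons and the developing brain. GluN3 subunits bind glycine, and those with GluN3A pass less calcium. In the nucleus accumbens these receptors are known for their part in synaptic plasticity after cocaine.

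The RefSeq promoter table (GRCm38.p6, the assembly of mm10) held entries for 4 of the 7 members, Grin1, Grin2c, Grin2d and Grin3b. The sequences of 3 are shown because they set a promoter window with a peak in every list beside a pair without one. Each runs 5′ to 3′ on the strand of the gene over the 250 bases before the start in that table. Capitals mark the GC box GGGCGG and the core of the cAMP response element (CRE), TGACG, on either strand. The windows are chr2:25319188-25319437 on the minus strand for Grin1, chr11:115267244-115267493 on the minus strand for Grin2c and chr10:79970474-79970723 on the plus strand for Grin3b.
Grin1: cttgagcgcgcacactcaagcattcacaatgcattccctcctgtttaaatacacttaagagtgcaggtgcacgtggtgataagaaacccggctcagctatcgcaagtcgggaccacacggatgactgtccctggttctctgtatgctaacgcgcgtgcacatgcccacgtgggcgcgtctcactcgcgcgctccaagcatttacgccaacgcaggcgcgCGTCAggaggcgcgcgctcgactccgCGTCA
Grin2c: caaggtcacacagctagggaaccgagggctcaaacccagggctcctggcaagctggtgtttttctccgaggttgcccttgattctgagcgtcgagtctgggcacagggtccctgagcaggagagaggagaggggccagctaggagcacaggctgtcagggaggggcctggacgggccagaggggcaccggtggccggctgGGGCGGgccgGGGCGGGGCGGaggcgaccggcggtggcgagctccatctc
Grin3b: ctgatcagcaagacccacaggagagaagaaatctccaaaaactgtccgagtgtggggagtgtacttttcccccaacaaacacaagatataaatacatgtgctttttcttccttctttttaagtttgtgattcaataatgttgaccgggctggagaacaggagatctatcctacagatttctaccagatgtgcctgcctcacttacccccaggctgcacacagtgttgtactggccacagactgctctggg

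Of these windows, extended to 50 bases after the start, the one of Grin1 was overlapped by a peak in 8 of 8 lists, and those of Grin2c, Grin2d and Grin3b in 0. The Grin2d window (chr7:45866632-45866931) and the Grin3b window lie inside the genes as placed below, after the gene start. For Grin2d and Grin3b the 0 therefore holds for the start in the promoter table and not for the gene start. The Grin1 window is 60.7% G or C with 33 CpG dinucleotides. The CRE core lies in it on the reverse strand at positions -31 and -5 from the start, and a GC box at position 9, outside the stretch printed. The Grin2c window has more G or C (70.0%) but fewer CpG (22). It holds 3 GC boxes at -50, -40 and -35, the last pair overlapping by 1 base. The Grin2d window has 56.0% G or C, 12 CpG and none of the motifs, and the Grin3b window 48.3%, 3 CpG and 1 AP-1 motif (TGANTCA) at -124. Over 32851 promoters of the same length the medians were 52.7% G or C and 7 CpG. A GC box was in 35.7% of them, the CRE core in 20.8% and the AP-1 motif in 7.81%. The other 6 of the 9 motifs searched on both strands were in none of the 4 windows. They were the full CRE TGACGTCA (1.79% of all promoters), parts of the neuron-restrictive element, TTCAGCACC (0.371%) and GGACAGC (6.56%), the NRF1 motif (0.971%), the EGR motif GCGTGGGCG (0.612%) and the MEF2 motif (3.69%). The full CRE contains the CRE core. These matches describe the letters of the windows and not binding.

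The lists held 27917 to 77103 peaks over 13.7 to 42.3 Mb, with the shortest in D2 CS and the longest in D1 CC, and read depth is not in them. By their rows on scaffolds outside chromosomes 1 to 19, X and Y, they were split here into a pair of sets, called technical sets below. That name is inferred from the row counts alone. Whether the sets were processed differently is not given in the sources used here. D2 CS and the 3 D1 lists after cocaine had 101 to 210 such rows, and D1 SS had 39, D2 CC 43, D2 SC 46 and D2 SS 52. All 5 pan-MSN markers had a peak in every list. D2 MSN markers covered 293 to 424 bp per Mb of list in the D2 lists and 21.2 to 165 in the D1 lists. D1 MSN markers covered 150.1 to 210 in the D1 lists and 74.7 to 152 in the D2 lists, so these ranges met. D1 SS had no peak at Drd2, Adora2a, Gpr6 or Sp9, whereas 4 or 5 of the 5 D2 MSN markers had one in the other D1 lists. Of 25 markers of non-MSN cell types, 5 (D1 SC) to 20 (D1 CC) had a peak, with 14 in D1 CS and 6 to 12 in the rest.

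Grin1, Grin2a, Grin2b and Grin3a had a peak, and a promoter peak (centre within 1 kb of the annotated start), in all 8 lists. With every list reduced to its 27917 strongest peaks by q, the length of the shortest list, Grin1 had no peak and Grin2b no promoter peak in D2 SC, while in the other 7 lists all 4 genes kept a promoter peak. Among all protein-coding genes 39.9% had a peak in all 8 lists and 34.7% a promoter peak in all 8. Grin2c had peaks in 4 lists and Grin2d in 3. Grin3b had none in any list, as did 33.5% of all genes. The number of members with a promoter peak was 6 in D1 CS, 5 in D1 CC and D2 SS, and 4 in the other 5 lists. The share of all genes with a promoter peak was 39.0% in D1 SS, 45.0% in SC, 51.3% in CS and 53.7% in CC. In the D2 lists it was 49.1% in SS, 47.6% in SC, 46.3% in CS and 49.3% in CC.

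**Figure D1:**
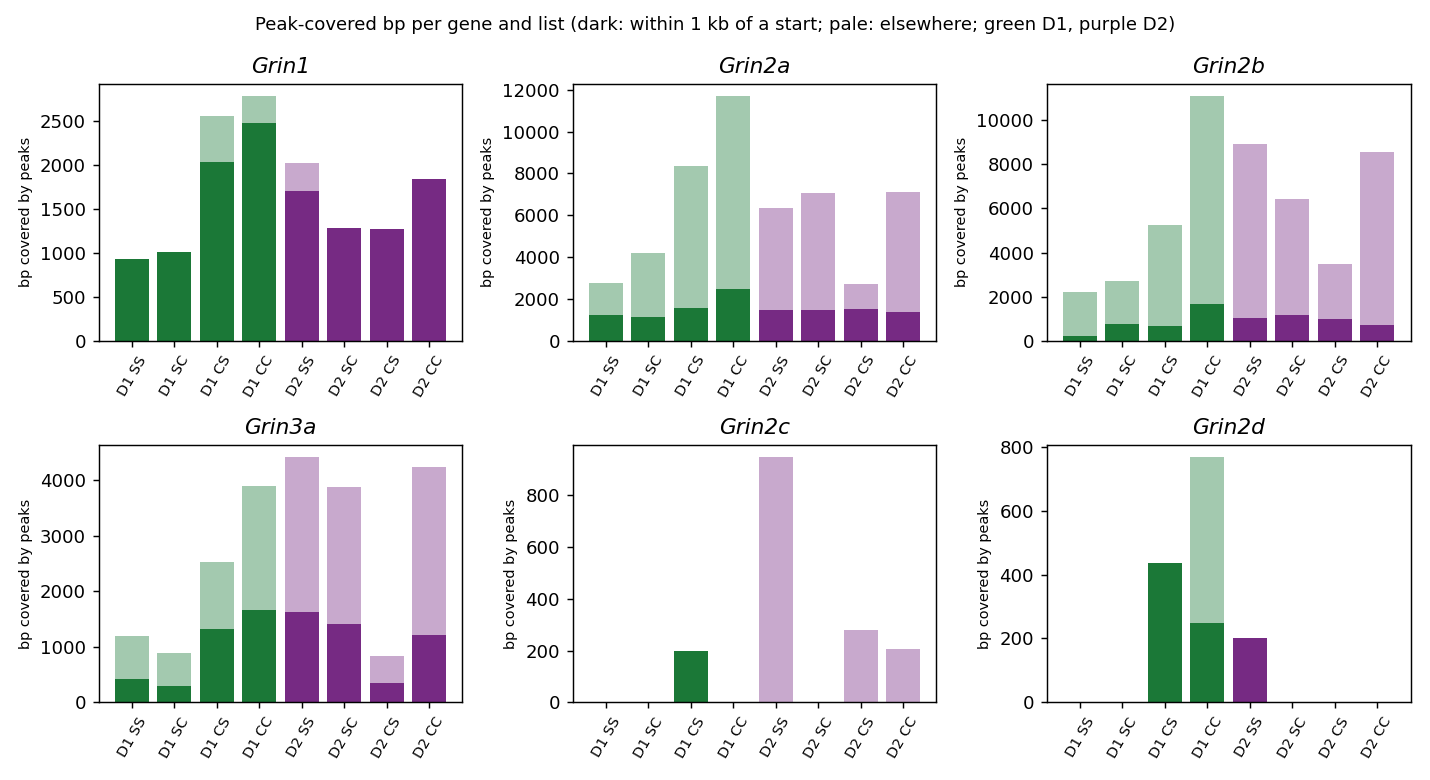
Base pairs covered by peaks of each NMDA receptor subunit gene in each of the 8 lists, with green bars for D1, purple bars for D2, dark parts for peaks within 1 kb of a start and pale parts for peaks elsewhere. Each bar is 1 list with no error; Grin2a and Grin2b reach 11703 and 11093 bp in D1 CC, and Grin3b has no bar.

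Grin1 encodes GluN1, the subunit without which no NMDA receptor forms, and lies at chr2:25291177-25319187 on the minus strand (28.0 kb). Its peaks covered 936 bp in D1 SS, 1015 in SC, 2551 in CS and 2784 in CC. In the D2 lists they covered 2018 bp in SS, 1288 in SC, 1267 in CS and 1842 in CC. D1 CS and D1 CC were highest, and D1 SS was lowest. At equal list length D1 CC (2472 bp) and D1 CS (2029 bp) were still highest, and D2 CC (751 bp) and D2 SC (0 bp) lowest. Equal length, here and below, means the same number of peaks, and their widths still differ between lists. In the full lists Grin1 had 33.4 to 99.4 bp per kb of gene length, the densest of the 4 members with a peak in all lists. The median over genes with a peak in the same list was 20.9 (D1 SS) to 44.3 (D1 CC).

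Nearly all of the Grin1 signal was at starts. The main promoter region, chr2:25317831-25319556, was in all 8 lists, at a percentile by fold enrichment among the peaks of its own list between 5.75 (D2 CS) and 59.7 (D1 CC). Fold is the enrichment over the caller's background and is not scaled between lists, so only its percentile within a list is set across lists. A percentile depends on which other peaks its list holds, and the lists differ in length and make-up. For the strongest promoter peak per gene, the median over genes was at percentile 67.8 in D1 SS and 82.2 in D1 CC. A higher percentile in another list is thus not by itself a gain in accessibility. Another region, chr2:25304774-25305723, lies 13.9 kb inside the gene at a start that the authors' annotation places there. It was in 7 lists, all but D1 SS. Its percentile was 55.6 in SC, 51.1 in CS and 76.1 in CC among the D1 lists. In D2 it was 50.6 in SS, 42.2 in SC, 27.9 in CS and 42.8 in CC. In 5 of these lists the inner start was stronger than the main promoter, and in D2 SS and D2 CC it was weaker. The only region away from a start, chr2:25311286-25311822, was in D1 CS, D1 CC and D2 SS, and its highest percentile was 26.2.

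Grin2a encodes GluN2A, the GluN2 subunit that rises as synapses mature, and lies at chr16:9567901-9996083 on the minus strand (428.2 kb). Its peaks covered 2765 bp in D1 SS, 4199 in SC, 8357 in CS and 11703 in CC. In D2 they covered 6327 bp in SS, 7057 in SC, 2724 in CS and 7110 in CC. D1 SS and D2 CS, among the shortest lists, were lowest, and D1 CC was highest. At equal list length the range was 2038 bp (D2 CC) to 6898 bp (D1 CC). Scaled to the covered total of each shortened list, D1 CC had log2 ratios of -0.02 against D1 SC and 0.12 against D1 CS. Against D1 SS the ratio was 0.59 (0.49 in the full lists) and against D2 CC 1.61 (0.59 in the full lists). At equal length D1 CC kept 7 Grin2a peaks and D2 CC 3. Both of these comparisons cross the technical sets. Per kb of gene the full lists gave 6.36 bp (D2 CS) to 27.3 bp (D1 CC), below the median over genes with a peak in each list.

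The Grin2a promoter region, chr16:9993484-9995986, was in all 8 lists, at percentile 37.5 in D1 SS, 59.2 in SC, 53.2 in CS and 65.6 in CC. In D2 it ranked at 70.1 in SS, 50.1 in SC, 44.0 in CS and 62.7 in CC. Inside the gene, 22 regions were found, and 2 of them were in every list. The region 170.7 kb from the start, chr16:9824918-9825814, ranked at percentile 24.4 in D1 SS, 66.5 in SC, 72.3 in CS and 85.2 in CC. In D2 it ranked at 81.9 in SS, 60.9 in SC, 78.4 in CS and 77.6 in CC, so it stood above the promoter of Grin2a in 7 lists and below it in D1 SS. The region 133.9 kb from the start, chr16:9861751-9862642, ranked between 11.6 (D2 CS) and 83.7 (D1 CC).

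The peak inside Grin2a that ranked highest within its list, chr16:9625521-9626147, was in D1 CC, 366.7 kb from the start, at a fold of 7.59 and percentile 88.1 (rank 9167 of 77103). The region it belongs to, chr16:9625521-9626157, was in 6 lists and not in D1 SS or D2 CS. Both are among the 3 shortest lists.

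Grin2b encodes GluN2B, which confers slow currents and binds CaMKII, and lies at chr6:135713221-136173615 on the minus strand (460.4 kb). Its peaks covered 2207 bp in D1 SS, 2700 in SC, 5258 in CS and 11093 in CC. In D2 they covered 8928 bp in SS, 6440 in SC, 3487 in CS and 8562 in CC. D1 CC, D2 SS and D2 CC were highest, and D1 SS was lowest. These lists differ in length. At equal length D2 CS (3487 bp), D1 CC (3440 bp) and D1 CS (3320 bp) were highest, D2 CC had 2770 bp, D1 SC 2500, D2 SS 2470 and D1 SS 2207, and D2 SC (1864 bp) was lowest. Scaled to the covered total of each shortened list, D1 CC was not high within D1. Its log2 ratios were -0.07 against D1 SS, -0.26 against D1 SC and -0.25 against D1 CS, and 0.22 against D2 CC. Per kb of gene the range in the full lists was 4.79 bp (D1 SS) to 24.1 bp (D1 CC).

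Its main promoter region, chr6:136173082-136173927, was in all 8 lists. It ranked at percentile 38.6 in SC, 61.2 in CS and 66.7 in CC of D1, and at 54.4 in D2 CS. In the lists with few scaffold rows it ranked at 16.5 in D1 SS and, among D2, at 12.1 in SS, 20.8 in SC and 31.3 in CC. The values of the technical sets thus did not overlap at this region, and set and group cannot be told apart. A neighbouring region 1.15 kb inside the gene, chr6:136172028-136172901, was in every list but D1 SS. The authors assigned it to Gm26653 in D1 CS and D2 CC, so by gene name it counts in 5 lists. At this neighbouring region the technical sets overlapped. Percentiles were 4.05 (D1 SC) to 13.5 (D1 CS) with many scaffold rows, and 7.23 (D2 SC) to 43.0 (D2 SS) with few.

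Inside Grin2b, 34 regions were found, 3 of them in all 8 lists and 18 in 1 list. The region 389.4 kb from the start, chr6:135783850-135784657, ranked at percentile 24.7 in D1 SS, 41.5 in SC, 82.97 in CS and 79.4 in CC. In D2 it ranked at 88.2 in SS, 77.5 in SC, 27.5 in CS and 80.9 in CC. Its D2 SS peak (rank 7315 of 61818) had the highest percentile inside the gene. The region 307.6 kb from the start, chr6:135865690-135866328, ranked between percentile 15.8 (D1 SS) and 73.4 (D1 CC), and the one at 265.8 kb, chr6:135907413-135908135, between 28.7 (D1 SS) and 65.7 (D2 CS). All 3 ranked above the Grin2b main promoter in D1 SC and in the D2 lists other than CS, and 2 of 3 did in the other D1 lists and in D2 CS.

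Grin2c (GluN2C) lies at chr11:115249169-115267297 on the minus strand, and had 5 peaks in 4 lists. It was covered over 200 bp in D1 CS, 945 in D2 SS, 281 in D2 CS and 204 in D2 CC, and had no peak in the other 4 lists. The D1 CS peak, chr11:115266686-115266885, was the only one within 1 kb of the start, at percentile 0.36 by fold. All others lay in the body, at percentile 16.6 or lower.

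Grin2d (GluN2D) lies at chr7:45831883-45871194 on the minus strand, and had 4 peaks in 3 lists. It was covered over 435 bp in D1 CS, 767 in D1 CC and 200 in D2 SS. The region chr7:45866004-45866446 was shared by these lists, at percentile 17.3, 13.7 and 10.8, and its peaks were centred 807 to 908 bp after the start used by the authors. None of the Grin2d peaks was among the 27917 strongest of its list by q, and of the Grin2c peaks only that of D2 CS was. Striatal interneuron markers (Pvalb, Sst, Npy, Chat, Nkx2-1 and Lhx6) had a peak in 3 of 6 cases in D1 CS, 6 in D1 CC and 2 in D2 SS. In D1 SS and D1 SC they had 0, in D2 SC and CC 2 and in D2 CS 1, and their summed coverage was 0 to 58.9 bp per Mb of list. Their part in the Grin2d peaks was not tested.

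Grin3a encodes GluN3A, known for its part in juvenile synapses and in cocaine-evoked plasticity, and lies at chr4:49661611-49846023 on the minus strand (184.4 kb). Its peaks covered 1202 bp in D1 SS, 884 in SC, 2526 in CS and 3889 in CC. In D2 they covered 4414 bp in SS, 3871 in SC, 839 in CS and 4238 in CC. The D2 lists other than CS, together with D1 CC, were high, and D2 CS and D1 SC were low. At equal list length D1 CC (2351 bp), D2 SS (2222 bp) and D2 CC (2058 bp) were highest, and D1 SC (884 bp) and D2 CS (839 bp) lowest. Its promoter region, chr4:49844458-49846127, was in all 8 lists, at percentiles from 25.6 (D1 SS) to 75.5 (D1 CC).

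A single region inside Grin3a was in all 8 lists. It is chr4:49664696-49665573, 180.9 kb from the start and near the end of the gene, with percentiles from 39.4 (D1 SS) to 81.7 (D2 SC). Of the 9 Grin3a regions, 2 were in the SS, SC and CC lists of D2 and in no D1 list. They are chr4:49799720-49799940 and chr4:49801767-49802352, at percentiles of 15.9 to 25.9. These 3 lists all have few scaffold rows, and D2 CS lacks both regions. Less than 1 kb from the first region lies chr4:49799974-49800241, which D1 CC, D2 SS and D2 CC held, at percentile 40.1 in D1 CC. That the first region is in no D1 list thus depends on joining only peaks that share at least 1 bp.

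Grin3b encodes GluN3B, best known from motor neurons, and lies at chr10:79970397-79977190 on the plus strand (6.8 kb). It was the only member with no peak in any list.

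**Figure D2:**
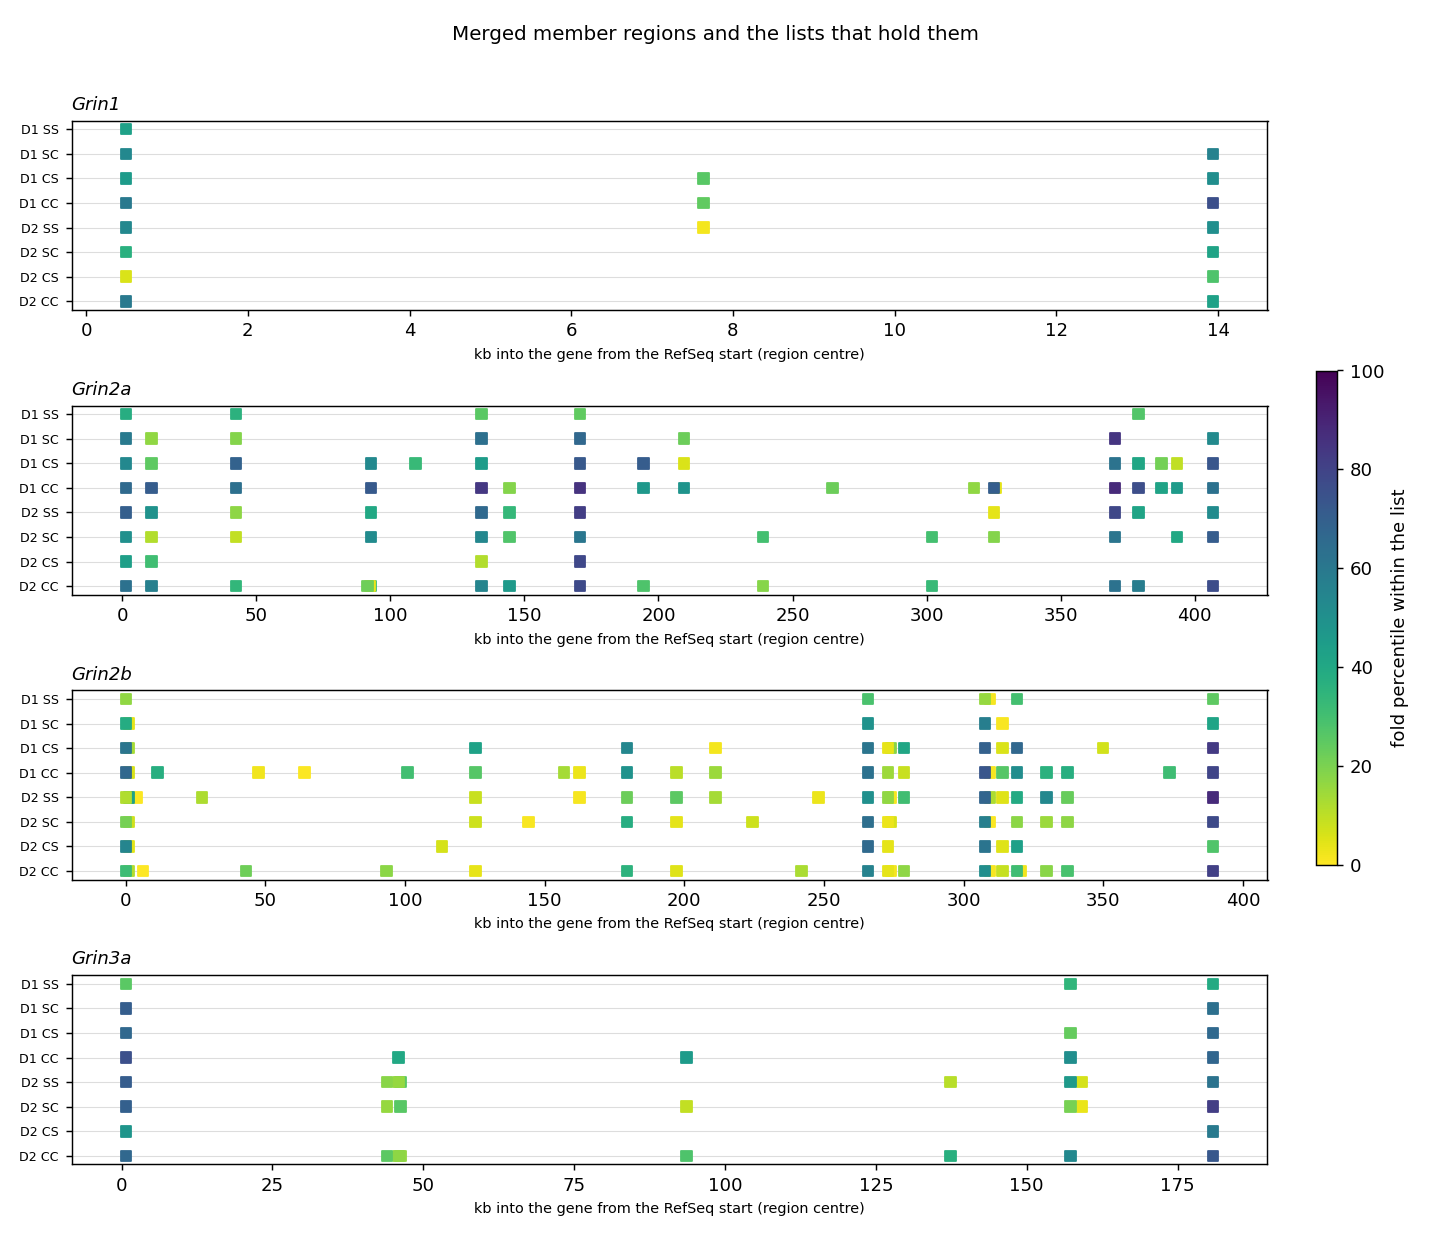
Peak regions of Grin2a, Grin2b, Grin3a and Grin1 by list, with the distance from the RefSeq gene start on the x axis (kb), 1 row per list and squares coloured by the percentile of the peak's fold within its list. Columns of squares in all 8 rows mark the 10 regions that every list held, and the rows of D1 SS, D1 SC and D2 CS are the sparsest.

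Over the members, the 296 peaks merged into 76 regions, and 10 of these (13.2%) were in all 8 lists. Among 94493 regions of the whole series the share was 18.2%. By kind, 4 of 8 promoter regions were in all lists, against 49.0% of all promoter regions, and 6 of 68 gene-body regions (8.82%), against 9.65% of all. Gene-body regions in 1 list were 25 of 68 (36.8%), and 31.5% of all. The members thus lie near the series as a whole in how often their regions recur.

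Regions missing from a single list were 5. D1 SS lacked 3 of them, the inner Grin1 start, the region 10.8 kb into Grin2a at chr16:9984832-9985706 and the Grin2b region at 1.15 kb, while 2.5% of all regions were in every list except D1 SS. D1 SC alone lacked chr6:135854193-135854764 in Grin2b (1.44% of all regions), and D2 CS alone lacked chr16:9953430-9954110 in Grin2a (2.37%). Regions in at least 3 D1 lists and no D2 list were 1 of 76, against 0.231% of all regions. It is chr16:9786265-9786820, 209.5 kb into Grin2a, with percentiles of 22.6 in SC, 5.47 in CS and 48.4 in CC of D1, all lists with many scaffold rows. Regions in at least 3 D2 lists and no D1 list were the 2 of Grin3a above, the first of them with a D1 CC peak less than 1 kb away, against 4.13% of all regions.

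Promoter peaks of the members were weak for promoters. In each list the strongest promoter peak of each member with one was placed among all peaks of that list by fold, and in 36 of 36 cases it was below the median of all genes with a promoter peak. That median was at percentile 67.8 in D1 SS, 73.3 in SC, 79.5 in CS and 82.2 in CC, and in D2 at 78.5 in SS, 76.7 in SC, 72.2 in CS and 77.5 in CC. By construction 49.8% of genes lie below it in D1 SS and 50% in the other lists. The 36 cases share genes and are not independent. Grin3a had the strongest promoter of the members in 5 lists, Grin1 in 2 and Grin2b in 1. For Grin3a the percentiles were 25.6 in D1 SS, 70.4 in SC, 66.4 in CS and 75.5 in CC, and in D2 70.9 in SS, 69.9 in SC, 47.7 in CS and 66.6 in CC. Grin2d ranked at 10.8 to 17.3 and Grin2c at 0.36.

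**Figure D3:**
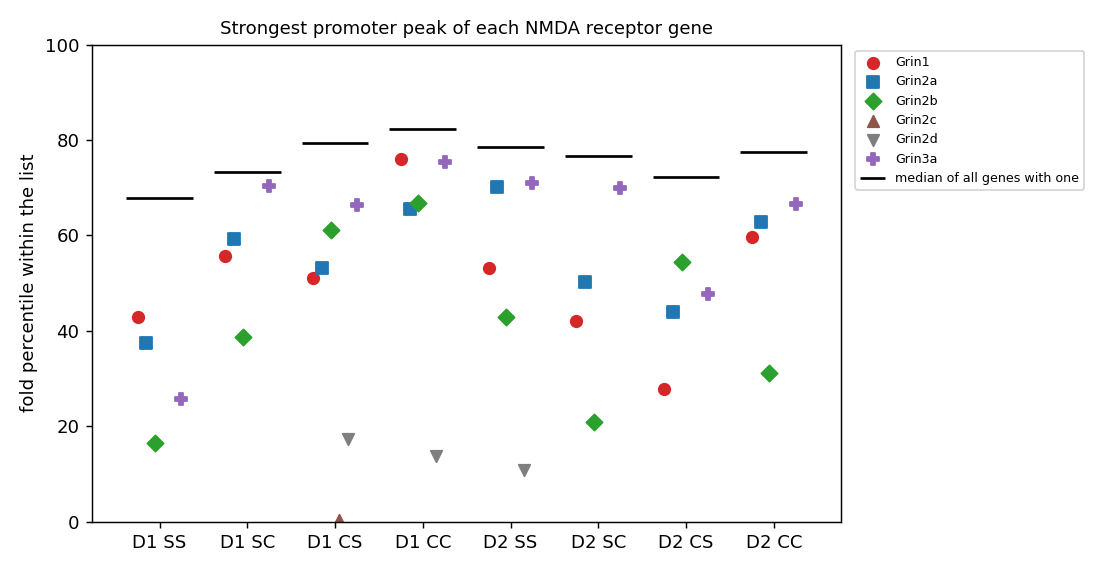
Percentile by fold, within each list, of the strongest promoter peak of each NMDA receptor subunit gene (1 symbol per gene), with a black line for the median over all genes with a promoter peak. All 36 symbols lie below the line, which runs from 67.8 in D1 SS to 82.2 in D1 CC.

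As a family, the 7 genes held 0.0630% of the peaks in D1 SS (18 peaks, exact 95% Clopper-Pearson interval 0.0373 to 0.0995), 0.0706% in SC (20, 0.0431 to 0.109), 0.0928% in CS (45, 0.0677 to 0.124) and 0.0687% in CC (53, 0.0515 to 0.0899). In D2 the shares were 0.0776% in SS (48, 0.0573 to 0.103), 0.0697% in SC (41, 0.05 to 0.0946), 0.0788% in CS (22, 0.0494 to 0.119) and 0.0716% in CC (49, 0.0530 to 0.0946). D1 CS was highest and D1 SS lowest, and all intervals overlapped. These intervals cover counting error only.

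**Figure D4:**
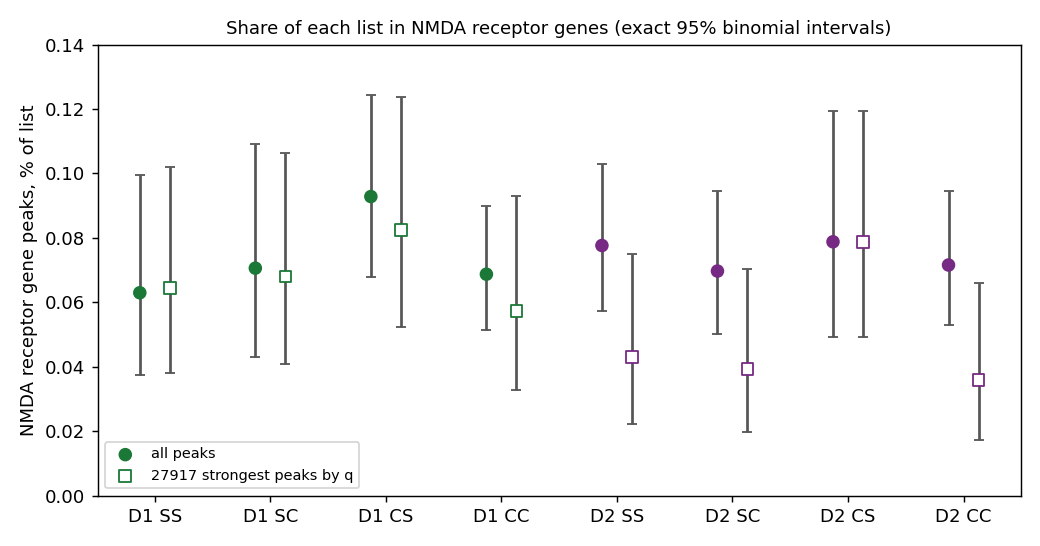
Share of peaks (%) assigned to the 7 NMDA receptor subunit genes in each list, with filled circles for all peaks, open squares for the 27917 strongest peaks by q in each list, and bars for exact 95% intervals of counting error. The filled circles lie between 0.0630% and 0.0928% with overlapping intervals, and the open squares of D2 other than CS are lower.

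For each comparison the log2 ratio of the family's share of peaks is given with an exact 95% interval of counting error. A member counts as past the fold when its share of the covered bp differed by at least 1.5 times, after scaling all lists to the same covered total and adding 200 bp per gene. The bp printed beside a member are unscaled, so the length of the list is still in them. The percentages give the share of all genes with a peak in either list that were past that fold in the same direction. In 16 of 16 comparisons the interval included 0, so no change of the family's share was detectable at these counts with the lists as deposited. With every list reduced to its 27917 strongest peaks by fold, 3 comparisons of D2 CS, given below, had an interval without 0, and by q none had. Several of the small ratios changed sign between settings. The calls of single members were also made again at equal length by q, an alternative chosen after seeing the data, and are given as such beside the others. At equal length the share of all genes past the fold was not computed. The percentages belong to the full lists only and give no background for the calls at equal length. Comparisons with SS share its list, and so on for the other lists used more than once.

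In D1 neurons, acute cocaine against baseline gave a log2 ratio of 0.17 (-0.83 to 1.17; 20 and 18 peaks). Grin2a alone of 4 members was past the fold, with 4199 against 2765 bp, and 28.0% of all genes were higher. None of the members was lower, against 11.4% of genes. At equal length Grin2a was again the one past the fold. For prolonged withdrawal against baseline the ratio was 0.56 (-0.26 to 1.44; 45 and 18 peaks), and 0.35 by q and 0.25 by fold at equal length. Here 3 of 6 members were higher, against 33.7% of genes, and none was lower, against 12%. They were Grin2a (8357 against 2765 bp) and Grin2c and Grin2d, which had no peak in D1 SS. At equal length only Grin1 was past it (2029 against 936 bp). Relapse against baseline gave 0.13 (-0.67 to 0.99), with 2 of 5 members higher (35.7% of genes) and none lower (29.4%). They were Grin2b, with 11093 against 2207 bp (log2 ratio of the covered share 0.73), and Grin2d, with no peak in D1 SS. At equal length Grin2b was not (3440 against 2207 bp) and Grin2d had no peak in either list, while Grin1 (2472 against 936 bp) and Grin2a (6898 against 2765 bp) were higher. These 3 comparisons cross the technical sets, so that set and group cannot be told apart.

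The other D1 comparisons stay within a technical set. Withdrawal against acute cocaine gave 0.39 (-0.39 to 1.23), with Grin3a (2526 against 884 bp), Grin2c and Grin2d higher among 6 members (22.2% of genes) and none lower (19.9%). At equal length none was past the fold. Relapse against acute cocaine gave -0.04 (-0.81 to 0.78), with Grin2d alone of 5 members higher (27.4% of genes) and none lower (39.4%), and at equal length with Grin3a alone higher (2351 against 884 bp). Relapse against withdrawal gave -0.43 (-1.03 to 0.17). None of 6 members was higher (13.7% of genes), and Grin2c, with no peak in D1 CC, was lower (13.5%). At equal length none was past the fold. Of the 37 member regions in D1 CS, 32 (86.5%) were also in D1 CC, and over all regions the share was 93.9%.

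In D2 neurons, acute cocaine against baseline gave -0.16 (-0.79 to 0.48; 41 and 48 peaks). None of 6 members was higher (5.4% of genes), and Grin2c and Grin2d, which had no peak in D2 SC, were lower (9.57%). At equal length Grin2a was higher (4035 against 2752 bp), and Grin1, with no peak left in D2 SC, was lower. Of the 38 member regions in D2 SC, 32 (84.2%) were also in D2 SS, and 87.9% of all regions were. Relapse against baseline gave -0.12 (-0.72 to 0.49; 49 and 48 peaks), with none of 6 members higher (7.35% of genes) and Grin2c (204 against 945 bp) and Grin2d (0 against 200 bp) lower (5.87%). At equal length Grin1 alone was lower (751 against 1308 bp). Relapse against acute cocaine gave 0.04 (-0.59 to 0.67), with Grin2c alone of 5 members higher (10.1% of genes) and none lower (4.3%). At equal length Grin1, with no peak left in D2 SC, was higher and Grin2a (2038 against 4035 bp) lower. In the full lists of these 3 comparisons, all within a technical set, Grin1, Grin2a, Grin2b and Grin3a stayed inside the fold. Their log2 ratios of the covered share ran from -0.46 (Grin1, acute cocaine against baseline) to 0.26 (Grin2a, the same comparison).

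Withdrawal against baseline in D2 crosses the technical sets and gave 0.02 (-0.78 to 0.78; 22 and 48 peaks). Grin1 alone of 6 members was higher (48.2% of genes), and Grin3a (839 against 4414 bp) and Grin2d were lower (21.0%). Grin1 covered fewer bp (1267 against 2018) and was higher only as a share (log2 ratio 0.60). With lists of equal length the family ratio was 1.46 (0.24 to 2.84; 22 and 8 peaks) by fold and 0.87 by q. Of the members, Grin2b (3487 against 2470 bp) and Grin2c were then higher by q, and Grin3a was again lower (839 against 2222 bp). The 4 comparisons left, D2 CC against D2 CS, D2 CS against D2 SC, D1 SC against D2 SC and D1 CC against D2 CC, cross the sets too. Their log2 ratios were -0.14 (-0.89 to 0.66), 0.18 (-0.64 to 0.96), 0.02 (-0.83 to 0.82) and -0.06 (-0.65 to 0.53). At equal length by fold the first became -1.46 (-2.84 to -0.24; 8 and 22 peaks) and the second 1.29 (0.11 to 2.59; 22 and 9 peaks). The third became 0.79 by q and 1.08 by fold, and the last turned to 0.68 by q and 0.81 by fold.

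Between the cell types at baseline, D1 against D2 gave -0.30 (-1.17 to 0.51; 18 and 48 peaks), and it turned to 0.58 by q and 1.00 by fold with lists of equal length. None of 6 members was higher in D1 (31.3% of genes), and Grin2b (2207 against 8928 bp), Grin2c and Grin2d were lower (28.1%). At equal length none was past the fold, with Grin2b at 2207 against 2470 bp and no peak of Grin2c or Grin2d in either list. All 15 member regions in D1 SS were also in D2 SS, as were 98.3% of all D1 SS regions. After withdrawal, D1 against D2 gave 0.24 (-0.53 to 1.04; 45 and 22 peaks), and -0.21 at equal length by fold. Grin2a (8357 against 2724 bp), Grin3a (2526 against 839 bp) and Grin2d were higher in D1, 3 of 6 members against 21.8% of genes, and Grin2c was lower (25.4%). At equal length Grin2c alone was past the fold, again lower.

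Of 29 other genes of the NMDA receptor pathway, 21 had a peak in all 8 lists and 18 a promoter peak in all 8, while 39.9% and 34.7% of all protein-coding genes did. The 4 MAGUK scaffolds, which anchor NMDA receptors at the synapse, all had both. Dlg2 (PSD-93) covered 2060 bp (D2 CS) to 19299 bp (D1 CC), and Dlg4 (PSD-95) 1035 to 2100 bp in the same lists. Of 8 further postsynaptic scaffolds 6 had a peak in every list, with Dlgap2 the most covered (24974 bp in D1 CC) and Shank1 the least (0 to 1945 bp). Of 7 kinases and phosphatases that act on the receptor 5 did. Fyn, a kinase of GluN2B, covered 1576 (D2 CS) to 9741 bp (D1 CC), and no peak was assigned to Cdk5. Among 4 genes of co-agonist supply only Slc6a9, the glycine transporter GlyT1, had a peak in every list, and the serine transporter gene Slc7a10 had 226 bp in D1 CS alone. Of 5 downstream signalling genes 4 did, with Kalrn the most covered (19468 bp in D1 CC). Neto1, an auxiliary protein, had a peak in all 8.

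The pathway genes were counted in the full lists by the same fold, and equal lengths were not tried for them. The lists also differ in make-up. Peaks that the authors annotated to gene bodies were 24.2% of all peaks in D2 CS, the lowest share, and 38.8% in D1 CC, the highest. They were 8301 of 28579 peaks in D1 SS, 16491 of 48469 in D1 CS and 6746 of 27917 in D2 CS. The part of this difference in the counts and medians below was not tested. For D1 CS against D1 SS, across the technical sets, 14 of 28 were higher and 0 lower, beside 33.7% and 12% of all genes. The median log2 ratio of their covered share was 0.60, against 0.67 for the members and 0.04 over all genes. D1 SC against D1 SS (10 higher and 1 lower of 25, beside 28.0% and 11.4%) and D1 CC against D1 SS (11 and 3 of 27, beside 35.7% and 29.4%) cross the sets too, as does D2 CS against D2 SS (4 and 6 of 26, beside 48.2% and 21.0%). Within the sets, D1 CS against D2 CS had 11 higher and 0 lower of 28, beside 21.8% and 25.4% of all genes, with medians of 0.52 for the pathway, 0.40 for the members and -0.25 for all genes. D1 SS against D2 SS had 4 higher and 7 lower of 26, beside 31.3% and 28.1%. D1 CC against D1 CS had 0 and 5 of 28 (13.7% and 13.5%), D1 CS against D1 SC 8 and 0 of 28 (22.2% and 19.9%) and D1 CC against D1 SC 8 and 4 of 27 (27.4% and 39.4%). D2 SC against D2 SS had 4 and 2 of 27 (5.4% and 9.57%), with medians of -0.10 for the pathway, -0.40 for the members and 0.02 for all genes. D2 CC against D2 SS had 2 and 0 of 26 (7.35% and 5.87%), with medians of -0.07, -0.25 and -0.06, and D2 CC against D2 SC had 2 and 2 of 27 (10.1% and 4.3%). For the 4 comparisons given above by their ratio alone, all across the sets, the share of all genes past the fold was not computed. Counts are therefore left out for them. Their pathway medians, in the order there, were 0.02, 0.16, 0.30 and 0.23, against -0.54, 0.59, 0.54 and 0.06 for all genes. The member medians rest on 6 genes each and include Grin2c and Grin2d, whose values against a list without a peak depend on the 200 bp added. In both D2 comparisons with SS just given by their medians, these genes had the lowest values. In D1 CS against D1 SS they had the highest, 1.06 (Grin2c) and 1.74 (Grin2d), beside 0.24 (Grin3a) to 0.76 (Grin2a) for the others. In D1 CS against D2 CS Grin2d had the highest value and Grin2c the lowest.

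Genes whose covered share varied most like that of a member over the 8 lists were ranked by Pearson's r of the log2 share among genes of similar coverage. For Grin1 these were Rfx1, Ncoa3 and Sbf1 (r of 0.98, 0.97 and 0.97, among 5308 genes), and for Grin2a Fry, Slc2a13 and Hivep3 (0.93, 0.92 and 0.88, among 887). For Grin2b they were Zmiz1, Atp8a2 and Myo16 (0.92, 0.90 and 0.90, among 925), and for Grin3a Grb14, Hs6st2 and Megf10 (0.96 for each, among 2910). Between members r was 0.52 for Grin1 and Grin2a, 0.11 for Grin1 and Grin2b, -0.60 for Grin1 and Grin3a, -0.04 for Grin2a and Grin2b, -0.25 for Grin2a and Grin3a and 0.11 for Grin2b and Grin3a. These are descriptions over 8 lists that share their length and technical set.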

How the data were processed

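ATAC-seq peak lists of 8 groups (26 libraries) were used. The submitters' processing notes name cutadapt, HISAT, SAMtools and MACS2, with no versions or roles, and mm10; whether libraries were pooled is not given in the sources used here. A fold per peak, the ratio to the caller's background, was deposited by the authors, is not scaled between lists and was set across lists only as a percentile within each list. The q-value of each peak was also deposited by the authors and reached 0.0453 at most. The lists hold 0 columns per library, so no replicate error could be computed and shares carry exact 95% Clopper-Pearson intervals.

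Peaks were taken by the authors' gene name. The merge across lists kept rows of chromosomes 1 to 19, X and Y, and peaks that shared at least 1 bp were joined. Covered bp were divided by the list's total, scaled to a common total, with a pseudocount of 200 bp. Gene positions and promoters came from RefSeq (GRCm38.p6). The technical sets were split at 60 scaffold rows. Promoter means a centre within 1 kb of the authors' start. The 7 members, the 29 pathway genes and the markers were chosen with earlier results of these data known, and are given by counts. Named genes were the members, the most and least covered of each pathway list and the 3 most alike for each member, apart from 1 result that is not reported here. Alternatives are in the closing section. Exons were not analysed here. On simulated data with regions set far apart, 200 of 200 were recovered, which does not test neighbouring or split peaks. For the ratio of shares, 969 of 1000 intervals held the true value when counts were independent. The work used scipy 1.17.1, numpy 2.4.6 and pandas 2.3.3 under Python 3.11.15, with plots by matplotlib 3.10.9.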

Additional observations from a re-analysis of the deposited data

Results flagged for a closer look

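A member with a peak in all 4 lists was flagged when it moved in opposite directions in D1 and D2, with log2 ratios of the share of covered bp at least 1.5-fold apart. The share of all genes that meet this rule was not computed. The cases below are thus not shown to be particular to these genes. For acute cocaine against baseline, Grin1 gave 0.14 in D1 and -0.46 in D2, and Grin2b 0.31 in D1 and -0.34 in D2. For withdrawal against baseline, Grin3a gave 0.24 in D1 and -0.98 in D2. For relapse against baseline, Grin2b gave 0.73 in D1 and -0.23 in D2. With lists of equal length by q, Grin1 had no peak left in D2 SC, the values of Grin2b for acute cocaine were 0.20 and -0.32, those of Grin3a -0.04 and -0.74, and those of Grin2b for relapse -0.07 and 0.10. With 1 list per group these differences were not tested. The D1 comparisons and the D2 withdrawal comparison cross the technical sets, where a difference of set cannot be told apart from one of group.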

How the results depend on the processing

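No paired analysis was possible because each group has 1 peak list for all its libraries, and no replicate could be left out for the same reason. Reducing every list to its 27917 strongest peaks moved the family share in D2 SS to 0.0430% by q and 0.0287% by fold, in D2 SC to 0.0394% and 0.0322%, in D2 CC to 0.0358% and 0.0287%, and in D1 CC to 0.0501% by fold. With equal lengths by q and by fold, the log2 ratio became 0.87 and 1.46 for D2 CS against D2 SS, -1.14 and -1.46 for D2 CC against D2 CS, 1.00 and 1.29 for D2 CS against D2 SC, 0.58 and 1.00 for D1 SS against D2 SS, and 0.68 and 0.81 for D1 CC against D2 CC. By fold it became 1.08 for D1 SC against D2 SC. Among the 16 ratios, the sign differed from that of the full lists in 4 by q and 6 by fold at equal length, 3 at a q of at most 1e-05, 4 by position, 4 by covered bp and 1 by gene-body peaks. Members with a promoter peak fell to 3 in D1 CC within 250 bp or by the RefSeq gene start, the latter chosen after seeing the data, and to 2 in D2 SC at equal length by q, where Grin1 lost its only peaks and Grin2b its promoter peaks. The cause was not tested. Regions in all 8 lists numbered 7 at a q of at most 1e-05 or at equal length, 9 with a reciprocal overlap of 50%, 10 with peaks within 1 kb merged, and 10 to 13 without each list in turn, also chosen after seeing the data. The family shares stayed within their intervals at that q, by position with 5 kb flanks, on autosomes and by covered bp, as did the ratios at that q, by position, by covered bp and, chosen after seeing the data, by gene-body peaks. Read depth is not in the lists, so its limit on weak peaks of Grin2c and Grin2d is unknown.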

Other observations

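Inside the bodies of member genes, 10 peaks were assigned by the authors to 5 other genes and are in none of the counts by name. At Grin2b, peaks assigned to Gm22892 were in D2 SS (chr6:135738085-135738284, percentile 6.36 by fold), D2 SC (chr6:135738398-135738615, percentile 33.4) and D2 CC (chr6:135738058-135738583, percentile 34.6). No D1 list and not D2 CS had a peak of that assignment. At Grin2d, peaks assigned to Gm45441 were in D1 CC (chr7:45833022-45833379, percentile 20.0), D2 SC (chr7:45833033-45833325, percentile 0.517) and D2 CC (chr7:45833107-45833306, percentile 2.26), although D2 SC and D2 CC had no peak under the name Grin2d.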
